A study of Mus musculus with 2 samples.

Results

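Genes for subunits of the mitochondrial respiratory chain and ATP synthase were read on 2 Affymetrix arrays of mouse embryonic stem (ES) cells. The genes were chosen by symbol alone, as those whose name in the platform annotation begins with Nduf followed by a, b, c, s or v, with Uqcr, with Cox and a digit from 4 to 8, or with Atp5, together with Sdha, Sdhb, Sdhc and Sdhd. This gave 87 of 17097 named genes, measured by 148 probe sets, and a gene was represented by its brightest probe set. By prefix, 35 belong to complex I, 4 to complex II, 7 to complex III, 17 to complex IV and 17 to complex V, while 7 are Ndufaf genes, which build complex I and are no part of it.

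The array labelled control KD came from C57BL/6 ES cells given lentivirus with a scrambled hairpin, and the array labelled TET2 KD from such cells given a short hairpin against Tet2, a dioxygenase of methylated DNA. In both, the hairpin stood under the U6 promoter in a pMSCV-puro vector, the cells grew without feeders on gelatin in serum and ESGRO, and puromycin was applied for 72 hours before total RNA was taken. Nothing in the labels says whether cells were a clone or a pool. There was 1 array per group, so no difference below has an error, an n above 1 or a test, and precision is limited by their number.

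The labels were not borne out in several respects. Tet2 itself read 5.62 (control KD) and 5.57 (TET2 KD) in log2 signal, the scale of all levels below. Its 2 probe sets averaged a difference of -0.16, TET2 KD minus control KD, so the targeted gene did not clearly tell the arrays apart. Below, values are given with the array labelled control KD first. Xist, the RNA of the inactive X chromosome, read 9.34 and 3.62, and the Y-linked Eif2s3y 0.89 and 6.14. The pituitary hormone gene Prl read 10.66 and 4.13. Of 11 ES cell markers, 8 were at or above the floor, a level of 2.55 that is the median of all values. Zfp42 read 10.56 and 10.58, Utf1 9.22 and 9.22, Sall4 8.73 and 8.75, and Sox2 7.09 and 6.98. Dppa5a was close to the floor, at 2.64 and 2.56. Pou5f1 and Nanog, which define these cells, were under it on both arrays, as was Lin28a. Klf4, a pluripotency factor, was the one marker of that list past 2-fold, at 5.87 and 6.88. Its 2 probe sets averaged a difference of 0.76, short of 2-fold, and 1.17% of all genes passed 2-fold upward. Of 7 brain markers 6 were at or above the floor, from Gfap at 4.23 and 4.48 to Stmn2 at 10.34 and 10.35. Snap25 was under it, at 2.51 and 2.26. Whether these values reflect the cells, the assignment of arrays to labels or the pairing of values with probe set names in the deposited table cannot be told apart here, and this limits every named value below.

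The respiratory chain passes electrons from NADH through complex I, or from succinate through complex II, to ubiquinone, on to complex III, by cytochrome c to complex IV, and so to oxygen. Complexes I, III and IV pump protons across the inner membrane, and complex V, the ATP synthase, uses the return flow to make ATP. Each complex except II joins subunits encoded by mitochondrial DNA, not analysed here, to the nuclear-encoded subunits described below. ES cells are known for a strong use of glycolysis beside respiration. Nuclear respiratory factor 1 (NRF1), YY1 and ETS family factors are known to bind promoters of many of these nuclear genes.

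Promoter sequences of these genes are shown first, since they carry features that the choice by symbol did not use. RefSeq promoters, from 250 bases before to 50 bases after a start on GRCm38.p6, were found for 70 of the 87 genes by gene identifier. The NRF1 core GCGCATGC, searched on both strands, occurred in 12 of the 70 (17.1%), against 688 of 17491 protein-coding genes with a promoter (3.93%). The YY1 core AAGATGGC occurred in 11 (15.7%), against 3.57% of all. An ETS core, CCGGAAGT, occurred in 5.71% against 5.69%, a GC box, GGGCGGG, in 37.1% against 36.9%, and TATAAA in 11.4% against 14.8%. Matches of different motifs shared bases in 1 case, a GC box and the YY1 core of Atp5j. A match describes the sequence, it is no site or cause, and no test was made.

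The promoters with an NRF1 match are printed for 1 gene of each complex that had one wholly before its start. They are Ndufa8, the member that differed most between the arrays, and in complexes II, IV and V the bearer with the highest level. Each run holds the 250 bases before the start, 5′ to 3′ on the gene's strand, with the NRF1 core in capitals.
Ndufa8 (chr2:36049339-36049588, minus strand): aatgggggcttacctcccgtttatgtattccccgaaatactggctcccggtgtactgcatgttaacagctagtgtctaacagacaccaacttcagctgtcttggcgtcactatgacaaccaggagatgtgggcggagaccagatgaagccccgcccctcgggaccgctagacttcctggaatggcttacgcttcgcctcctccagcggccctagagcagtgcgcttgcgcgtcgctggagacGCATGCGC
Sdhb (chr4:140961021-140961270, plus strand): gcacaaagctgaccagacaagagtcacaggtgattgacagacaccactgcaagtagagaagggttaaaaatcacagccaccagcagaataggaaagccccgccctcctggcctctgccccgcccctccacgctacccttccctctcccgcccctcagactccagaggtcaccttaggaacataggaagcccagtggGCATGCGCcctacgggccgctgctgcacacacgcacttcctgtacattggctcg
Cox6a1 (chr5:115348959-115349208, minus strand): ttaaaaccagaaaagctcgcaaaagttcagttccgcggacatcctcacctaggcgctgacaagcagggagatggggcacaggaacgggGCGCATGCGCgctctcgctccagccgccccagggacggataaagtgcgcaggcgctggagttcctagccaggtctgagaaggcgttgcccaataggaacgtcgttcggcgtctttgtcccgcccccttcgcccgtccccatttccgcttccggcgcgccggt
Atp5l (chr9:44920743-44920992, minus strand): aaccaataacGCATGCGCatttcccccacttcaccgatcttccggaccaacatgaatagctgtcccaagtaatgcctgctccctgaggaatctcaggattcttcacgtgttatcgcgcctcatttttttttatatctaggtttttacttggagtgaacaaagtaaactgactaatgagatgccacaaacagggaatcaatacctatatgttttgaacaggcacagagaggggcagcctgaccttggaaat
In Ndufa8 the core lay directly before the start, at position -8, on the opposite strand. It began at -54 in Sdhb and at -240 in Atp5l, both on the opposite strand. In Cox6a1, at -162, the matches of both strands overlapped, so that 10 letters are in capitals. Sdhb, Cox6a1 and Atp5l differed between the arrays by -0.10, -0.07 and 0.08, and Ndufa8 by -1.76. The 12 bearers had a median difference of -0.02 with 7 below 0, and the 57 others at or above the floor a median of 0.00 with 26 below 0.

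Most YY1 matches shared a place and a direction, which were not tabulated for the other genes with this core. Whether they are particular to the members is thus not known here. Of 11 matches, 10 ran in the direction of the gene, and 9 lay after the start, from position 11 to position 39. The stretches of 20 bases around 8 of these are given in order of position to show the shared letters, with the YY1 core in capitals.
Ndufaf8 (chr11:120098938-120098957, plus strand): gggcccAAGATGGCggcgcc
Ndufc1 (chr3:51408920-51408939, minus strand): cggaacAAGATGGCgccgtc
Ndufa3 (chr7:3617389-3617408, plus strand): aagaacAAGATGGCcgggag
Atp5j2 (chr5:145191505-145191524, minus strand): gacttcAAGATGGCgtcact
Ndufs7 (chr10:80249467-80249486, plus strand): gaggccAAGATGGCggcgct
Ndufa9 (chr6:126849102-126849121, minus strand): tgggagAAGATGGCggccgc
Ndufs6 (chr13:73328436-73328455, minus strand): accggcAAGATGGCggcggt
Ndufs4 (chr13:114388046-114388065, minus strand): tacaggAAGATGGCggcggt
Of the 8 genes, 6 are of complex I by their prefix, Atp5j2 encodes a subunit of complex V, and Ndufaf8 an assembly factor. Their differences between the arrays ran from -0.06 in Ndufs4 to 0.05 in Ndufa9. The ninth match after a start, in Ndufb8, ended too near the edge of the window to be shown.

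Start sites also lay close to those of other genes. A protein-coding gene on the opposite strand started within 1000 bases upstream for 19 of the 70 (27.1%), against 8.48% of all genes with a promoter. The partners at or above the floor numbered 15, with differences from -0.30 to 0.42. None was past 1.5-fold, while 1.78% of all genes were higher and 5.42% lower by as much. With so few partners, this count is near those shares. Gabpa, which encodes an ETS family factor known to act on respiratory genes, starts 148 bases from Atp5j and read 5.67 and 5.88. Morn5 starts 135 bases from Ndufa8 and did not reach the floor, with values of 1.78 and 1.61.

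Most of the members had bright probe sets. Of the 87, 84 (96.6%) had a mean of both arrays at or above the floor, against 65.4% of all genes. A mean of 8 or more was found for 61 members (70.1%) and for 5.57% of all genes. The lowest, median and highest level of the 84 were 2.68, 8.62 and 10.73 with the control KD label, and 2.45, 8.63 and 10.66 with the TET2 KD label. Both arrays thus covered nearly the same range.

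**Figure D1:**
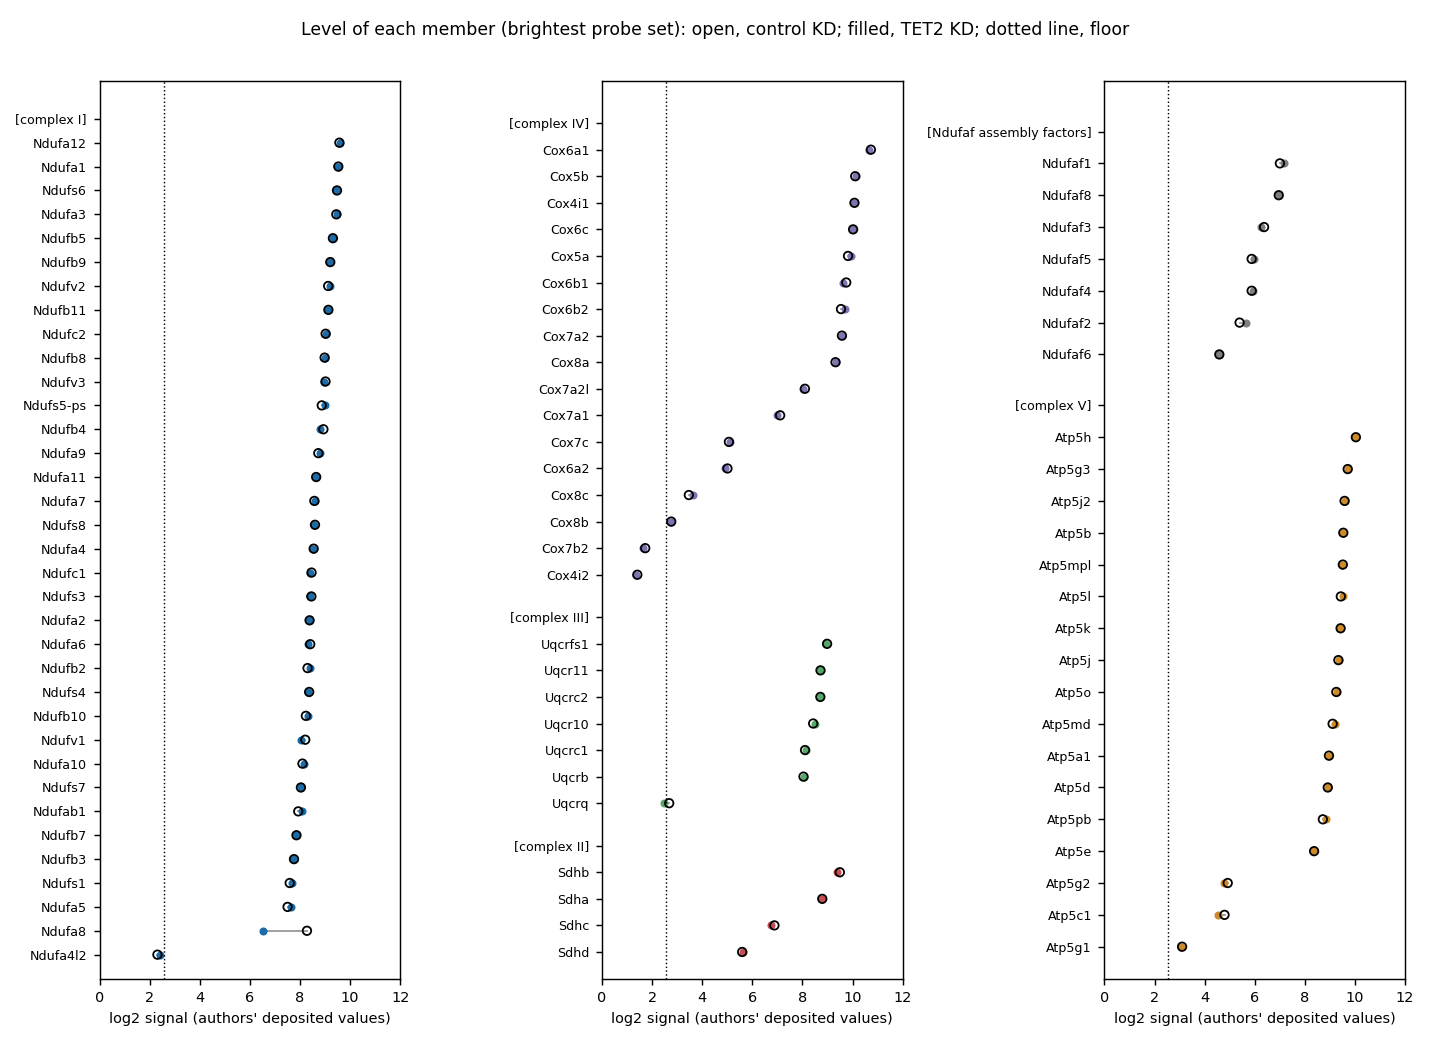
The log2 signal of the brightest probe set of each of the 87 genes is plotted by complex, with open circles for the array labelled control KD, filled circles for the array labelled TET2 KD and a dotted line at the floor of 2.55. The circles coincide nearly everywhere, except in Ndufa8, at 8.28 and 6.52.

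By complex, the median level in the array labelled control KD was 8.56 for 34 genes of complex I at or above the floor, 7.83 for the 4 of complex II and 8.43 for the 7 of complex III. It was 9.54 for 15 of complex IV and 9.25 for the 17 of complex V, and 5.88 for the 7 Ndufaf genes. In the array labelled TET2 KD these medians were 8.55, 7.76, 8.49, 9.59, 9.29 and 5.96, in the same order. Each probe set has its own response to RNA, so these medians describe the probe sets of a complex and give no order of RNA amounts.

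Probe sets of 1 gene show how far that response reaches. In 41 members with 2 or more probe sets, the mean levels within a gene lay 0.05 to 8.70 apart, with a median of 0.95, and in 13 they were more than 2 apart. Cox5b, a peripheral subunit of complex IV, read 10.11 and 10.16 in its brightest probe set and 1.42 and 1.43 in its dimmest. Ndufa12, an accessory subunit of complex I, spanned mean levels from 1.19 to 9.58. The differences between the arrays varied far less among probe sets of a gene than the levels did. In the 37 members with 2 or more probe sets at or above the floor, differences lay 0.42 apart at most, in Ndufs4, and 0.07 apart in the median, and no gene reached 0.5.

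**Figure D2:**
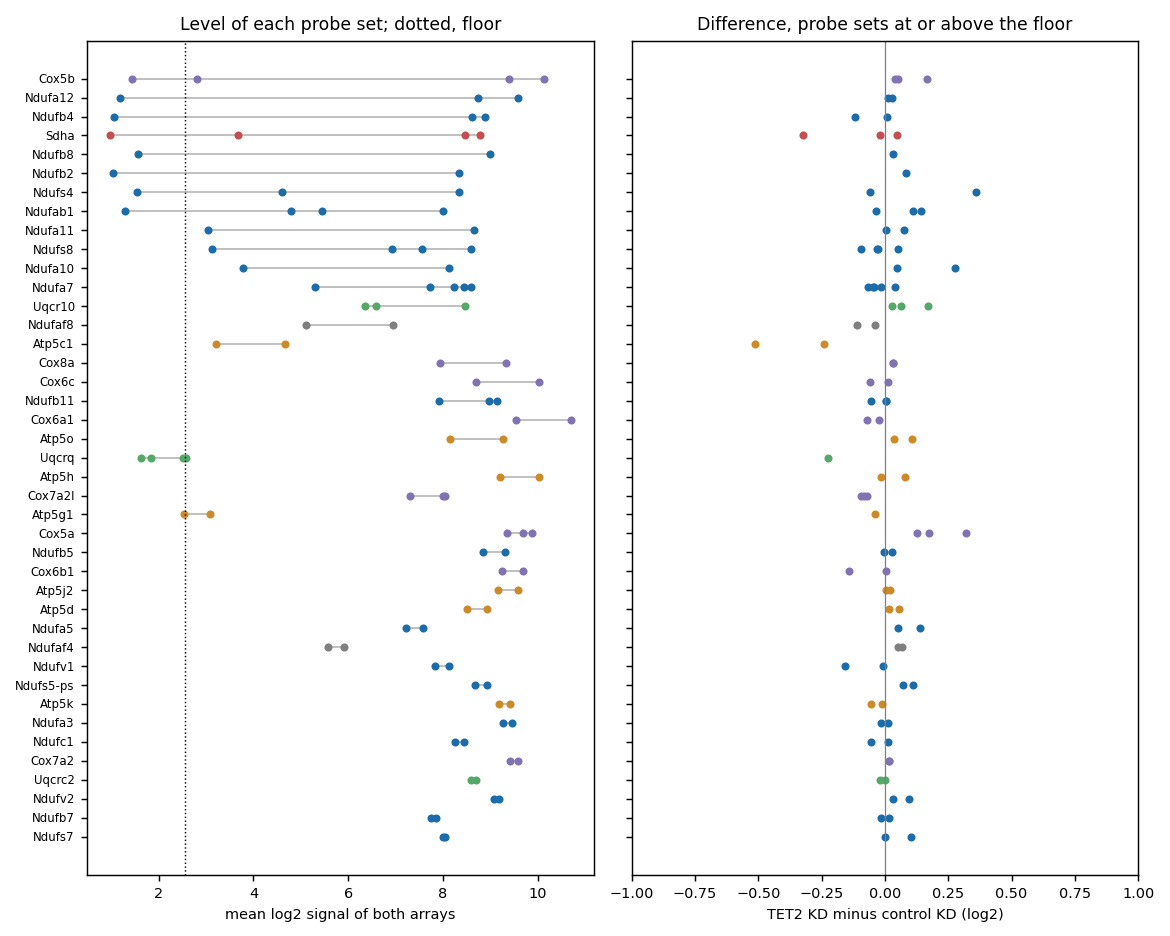
For the 41 genes with 2 or more probe sets, the left panel plots the mean log2 signal of each probe set and the right panel the difference, TET2 KD minus control KD, of those at or above the floor. Levels within a gene are up to 8.70 apart, whereas differences stay within 0.42 of each other.

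Between the arrays, 1 member was past 2-fold. Of the 84 that reached the floor, 0 read 2-fold or more higher with the TET2 KD label, against 1.17% of 11174 genes, and 1 read lower by as much, against 1.41%. At 1.5-fold the counts were again 0 and 1, against 1.78% and 5.42% of all genes. The count of 1 in 84 lower by 2-fold is near that of all genes. The median difference, TET2 KD minus control KD, was 0.00 for the members and -0.01 for all genes, and the median size of the difference was 0.04 for the members and 0.10 for all genes.

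Ndufa8 was the member past 2-fold. It encodes an accessory subunit of complex I that lies on the side facing the intermembrane space. Its single probe set read 8.28 with the control KD label and 6.52 with the TET2 KD label. The difference was -1.76, which leaves 29.6% of the first value. The first signal was 3.38-fold the second, and both were well above the floor. Counted from the lowest, its difference was number 48 of 11174 genes. In RNA of whole cultures, fewer cells of a type and less RNA per cell cannot be told apart. No other probe set carries the name Ndufa8, so the value has no check within the arrays.

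The other 83 members at or above the floor lay between -0.24 and 0.25. Beyond 0.2 in size were Atp5c1, Uqcrq and Ndufaf2. Within 0.1 lay 64 of the 84 (76.2%), against 50.4% of all genes. Differences of all genes were smaller at high levels, and the members are mostly at high levels. Among genes with a mean from 8 to 9, 27 of 32 members (84.4%) and 70.6% of all 623 genes lay within 0.1. At 9 and over, 25 of 29 members (86.2%) and 82.7% of 330 genes did. Between 6 and 8 the order was the other way, with 4 of 10 members (40.0%) and 57.4% of 3194 genes.

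**Figure D3:**
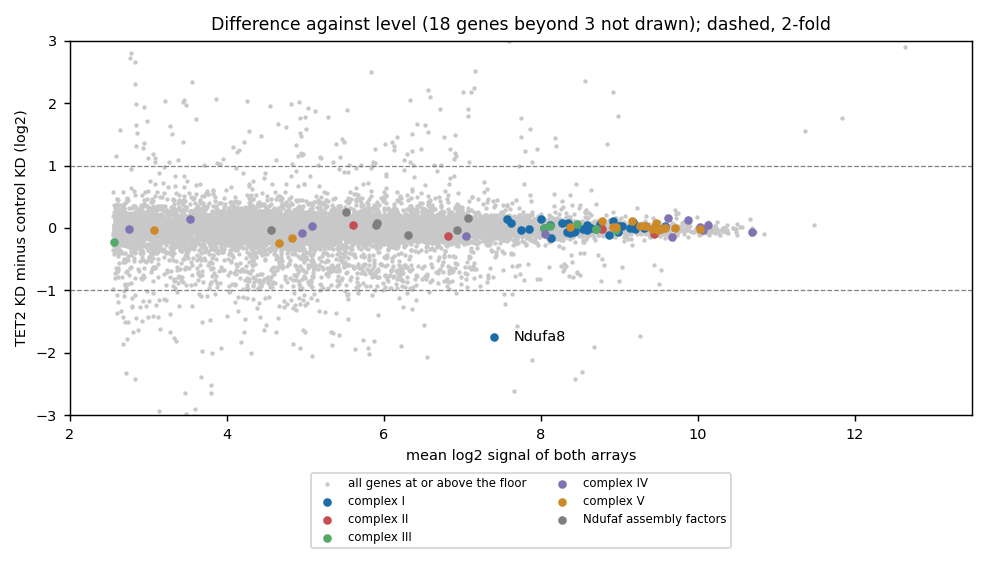
The difference, TET2 KD minus control KD on the log2 scale, is plotted against the mean log2 signal of both arrays for 11174 genes in grey and the 84 members in colour by complex, with dashed lines at 2-fold. The members lie near 0 at all levels except Ndufa8 at -1.76, and 18 genes beyond 3 are outside the frame.

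Signs were evenly divided. Of the 84, 42 were below 0, against 52.1% of all genes. This split moved with the scaling of the arrays. After quantile normalization 29 were below 0 (34.5%, against 45.5% of all genes), and with each array centred on its median gene 19 were (22.6%, against 40.2%), a shift of -0.04 being taken out. Differences of a few hundredths thus have no settled direction.

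**Figure D4:**
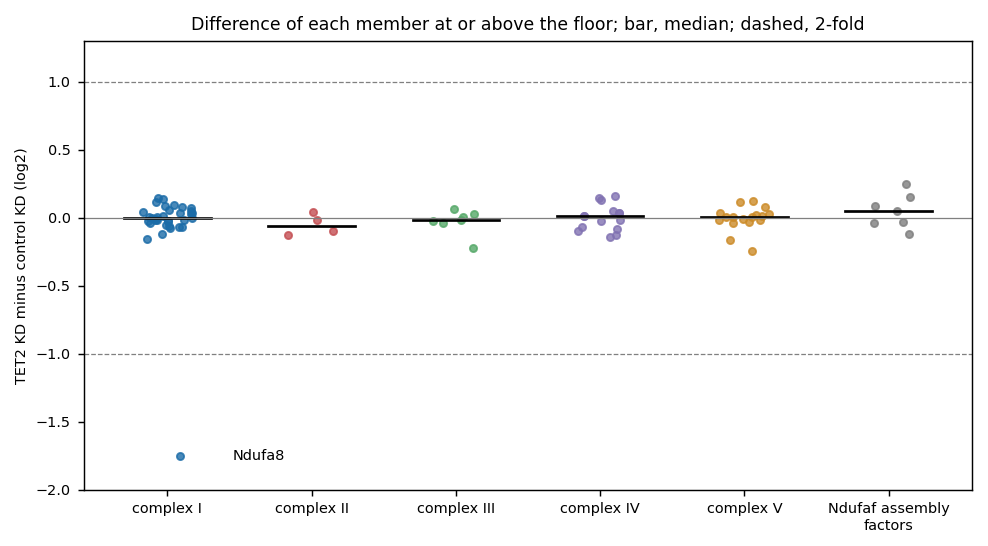
The difference, TET2 KD minus control KD on the log2 scale, is plotted for each of the 84 members by complex, with a bar at the median and dashed lines at 2-fold, in the deposited scaling. All medians lie between -0.06 and 0.05, and Ndufa8 is the single point beyond a dashed line.

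Complex I takes electrons from NADH. Its 34 members at or above the floor had a median difference of 0.00, with 18 below 0 and 28 within 0.1. Its core subunits, which hold the flavin and iron-sulfur clusters or the site next to ubiquinone, were close on both arrays. Ndufv1, which binds NADH and the flavin, read 8.21 and 8.05. Its other probe set differed by -0.01. Ndufv2, its iron-sulfur partner, read 9.12 and 9.22, and Ndufs1, the large iron-sulfur subunit, 7.59 and 7.66. Ndufs3 read 8.45 and 8.38, Ndufs7 8.04 and 8.04, and Ndufs8 8.60 and 8.57. The 6 core differences ran from -0.16 to 0.09, all far smaller than that of Ndufa8.

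Accessory subunits of complex I surround that core. Of the 28 other members of complex I at or above the floor, 23 lay within 0.1. After Ndufa8, Ndufb4 had the lowest difference among these, at 8.93 and 8.82, and Ndufab1, the mitochondrial acyl carrier protein, the highest, at 7.93 and 8.07. Its 3 probe sets at or above the floor differed by -0.04 to 0.14, so they did not share a sign. Ndufa5 read 7.50 and 7.64. Ndufs4 read 8.37 and 8.31 in its brightest probe set, while a dimmer one differed by 0.36. Ndufs5-ps is annotated as a pseudogene, and RNA of Ndufs5 itself, if it binds these probes, cannot be told apart from it. It read 8.87 and 8.98.

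Among the Ndufaf assembly factors the median difference was 0.05, with 3 of 7 below 0. Ndufaf2 had the highest difference of all members, at 5.39 and 5.64, and Ndufaf3 the lowest of the 7, at 6.37 and 6.25. Ndufaf1 differed by 0.15.

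Complex II, succinate dehydrogenase, belongs to both the tricarboxylic acid (TCA) cycle and the chain. Sdha, the flavoprotein that oxidises succinate, read 8.79 and 8.77, and its 3 probe sets at or above the floor differed by -0.32 to 0.05. Sdhb, the iron-sulfur subunit, read 9.49 and 9.39. The membrane anchors Sdhc and Sdhd read 6.88 and 6.75, and 5.59 and 5.64. Of the 4 genes, 3 had the lower value with the TET2 KD label, by 0.13 at most.

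Complex III oxidises ubiquinol and reduces cytochrome c. The core proteins Uqcrc1 and Uqcrc2 read 8.10 and 8.13, and 8.71 and 8.69, and Uqcrfs1, the Rieske iron-sulfur protein, 8.98 and 8.94. Uqcr10 had the highest difference of the complex, at 8.43 and 8.49. Uqcrq, a small subunit near the ubiquinone site, was poorly measured. Its 4 probe sets had mean levels from 1.62 to 2.57, and the brightest read 2.68 and 2.45, the second of which lies under the floor, so it gives no fold.

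Complex IV, cytochrome c oxidase, passes electrons to oxygen. Of its 15 members at or above the floor 7 were below 0, with a median of 0.01. Cox4i1, its largest nuclear-encoded subunit, read 10.07 and 10.05, and Cox5b 10.11 and 10.16. Cox5a read 9.82 and 9.94, and all 3 of its probe sets were higher in the array labelled TET2 KD, by 0.13 to 0.32. Cox6b1 had the lowest difference of the complex, at 9.75 and 9.61, although its second probe set differed by 0.00. Cox6a1 read 10.73 and 10.66. Cox7a2l, a factor that joins complexes III and IV, differed by -0.10. Cox7c read 5.06 and 5.10.

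Several members are isoforms known from particular tissues, and they ranged from high to background. Cox6b2, known from testis, read 9.54 and 9.70, the highest difference of complex IV, beside 9.75 and 9.61 for the widespread Cox6b1. Of 7 markers of testis germ cells, 1 was at or above the floor, Ldhc at 3.54 and 3.32. Cox7a1, known from heart and skeletal muscle, read 7.11 and 6.98, and its widespread partner Cox7a2 9.58 and 9.59. Cox6a2, another muscle isoform, read 5.01 and 4.92. Cox8b, a muscle isoform too, read 2.76 and 2.75, and Cox8c, known from testis, 3.46 and 3.61, beside 9.32 and 9.35 for Cox8a. Of 12 striated muscle markers 6 were at or above the floor, the brightest being Actn3 at 5.28 and 4.96.

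Under the floor on both arrays were 3 members, all such isoforms. Cox4i2, a form known from lung and low oxygen, read 1.41 and 1.37. Cox7b2, another form known from testis, read 1.72 and 1.63. Ndufa4l2, known as a target of the hypoxia response, read 2.31 and 2.42, while its paralog Ndufa4, named after complex I and now placed in complex IV, read 8.55 and 8.53. All 8 isoforms differed by 0.16 or less between the arrays.

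Complex V makes ATP in its F1 head, which sits on the Fo motor in the membrane. In the head, Atp5a1 and Atp5b, the alpha and beta subunits, read 8.96 and 8.97, and 9.53 and 9.51. The stalk subunits Atp5d and Atp5e read 8.91 and 8.93, and 8.37 and 8.38. Atp5c1, the gamma subunit that turns within the head, had the lowest difference of the complex, at 4.79 and 4.55. Its second probe set read 3.46 and 2.95, a difference of -0.51, short of 1.5-fold. Both probe sets had the lower value with the TET2 KD label.

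In the Fo motor, Atp5g1, Atp5g2 and Atp5g3 each encode the same ring subunit from separate genes. Atp5g3 read 9.71 and 9.71, Atp5g2 4.92 and 4.76, and Atp5g1 3.10 and 3.06. Atp5pb, of the outer stalk, had the highest difference of the complex, at 8.72 and 8.83, and Atp5md, a small membrane subunit, read 9.11 and 9.22. Over the 17 members the median difference was 0.00, with 7 below 0 and 13 within 0.1.

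Equal values limit 7 members. The brightest probe sets of Atp5mpl, Cox4i2, Cox6a2, Ndufa3, Ndufb3, Ndufs3 and Ndufs7 share both of their values with a probe set of another gene or, for Cox4i2, of no named gene. Values were counted as equal when all 9 deposited decimals were the same. Ndufa3, at 9.45 and 9.46, has the values of a probe set of Sparc, a secreted matrix protein. Such sharing was found for 8.05% of members and 7.55% of all genes. Which name these values belong to is not known here, and Ndufa8 is not among them.

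Some genes that work with the chain were past 1.5-fold, a limit that 1.78% of all genes passed upward and 5.42% downward. The lists were small and were not tested against these shares. Of 33 assembly factors outside the Ndufaf family at or above the floor, among 41 listed, 0 were past 1.5-fold, with 18 below 0 and a median of -0.02. Of 18 further chain genes (ubiquinone synthesis, cytochromes c and c1, electron entry, an ATP synthase inhibitor and Higd factors), the ubiquinone synthesis gene Pdss2 was past 1.5-fold, at 4.63 and 3.92, but its 2 probe sets averaged -0.37. In a list of TCA cycle genes that also held Dlat, Pdha1, Pdhb and Pdhx of the pyruvate dehydrogenase complex, 3 of 16 were lower by 1.5-fold or more. None was higher by as much, beside 5.42% lower and 1.78% higher of all genes. Suclg2 and Sucla2 encode the alternative GDP-forming and ADP-forming beta subunits of succinyl-CoA ligase. Suclg2 read 6.08 and 5.02. Sucla2 read 9.10 and 8.50, although its 2 probe sets averaged -0.29. Suclg1, the alpha subunit that pairs with either, read 7.85 and 7.95. Pdhx, which is no enzyme of the cycle itself, read 4.91 and 3.76. The median of the 16 listed genes was -0.02, with 9 below 0, and the median size of their differences was 0.04, as for the members.

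Among 18 regulators of mitochondrial DNA and biogenesis, 2 were lower by 1.5-fold or more and 0 higher, beside the same shares of all genes, 5.42% and 1.78%, with a median of -0.04. Polrmt, the mitochondrial RNA polymerase, read 6.27 and 5.52. Polg2, a subunit of the mitochondrial DNA polymerase, read 6.16 and 5.47. Each has 1 probe set.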

How the data were processed

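Total RNA, 2 µg per sample, was copied with a T7-oligo(dT) primer and labelled with biotin, per the labels' protocols. The values deposited by the authors are log2 signals of probe sets. Per the submitters' processing notes they come from Affymetrix Expression Console, while version, summary method and normalization were not stated in any source used. The log base was read from the values.

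Of 45141 probe sets, 104 controls were left out. The platform annotation gives 28898 of the others 1 symbol, 551 several and 15588 none, and only those with 1 symbol were named. The probe set brightest over both arrays stood for its gene. As a floor served 2.55, the median of every value outside the controls, and 11174 genes averaged at least that. A gene was called at a difference of 1 (2-fold) without any test, as each group had 1 array. Promoters were matched by gene identifier. Named were members past 1.5-fold, the extremes of each complex, those under the floor, those whose probe sets differed by 0.5 or more, tissue isoforms with their partners, core subunits, members with equal values, and members of related lists past 1.5-fold; others were chosen after their values were seen. Members and lists were chosen with earlier results of these data known. The calling step was run on simulated data with known differences beyond 2-fold and the same spread at all levels. That run checks the code and says nothing about the labels or values of these arrays. Python 3.11.15, numpy 2.4.6, pandas 2.3.3 and matplotlib 3.10.9 were used.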

Additional observations from a re-analysis of the deposited data

How the results depend on the processing

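The results were recomputed with other scalings, other floors (25th or 75th percentile, or none), another choice among several probe sets, no equal values, subunits alone and a 1.5-fold threshold. Of 87 values under them, 86 stayed within 1.5 times of a count or 0.05 of a median. The exception was the number of members below 0, which was 19 with the arrays centred on their medians, against 42. The limit of 0.05 is larger in size than each main median except that of complex II (-0.06). It thus allows a change of sign. Over the alternatives the median ran from -0.01 to 0.04 in complex I, -0.02 to 0.02 in III and -0.02 to 0.06 in IV. That of complex II stayed below 0, from -0.10 to -0.02, and that of complex V above 0, from 0.005 to 0.046. The counts past 2-fold stayed at 1 lower and 0 higher in every alternative listed. The difference of Ndufa8 ran from -1.76 to -1.71. Its single probe set was kept in every choice of probe sets, so only the other scalings could move this value. In another step, probe sets whose identifiers end in _s_at, _x_at or _a_at were left out. This left 68 of the 87 members, with 64 at or above the floor, and no value for the rest. Atp5c1 then differed by -0.51, Cox5a by 0.32 and Ndufv1 by -0.01. The same step left Ndufb8 (-0.28) and Atp5g1 (0.23) with probe sets whose means were under the floor, so these are differences of background. That dim probe set also enters the mean of all probe sets of Ndufb8, -0.13. No paired analysis was possible because each group has 1 array, and leaving out a replicate was not possible for the same reason. Dim probe sets limit Uqcrq and the 3 members under the floor.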

Other observations

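Other large assemblies had a somewhat larger median size of difference than the respiratory chain genes, at levels that were not matched. They were taken by symbol, and kinases, binding partners and pseudogenes with the same prefix were left out after their values had been seen. The median size of the difference was 0.07 for 66 cytosolic ribosomal protein genes at or above the floor, 0.06 for 34 proteasome genes and 0.08 for 72 mitochondrial ribosomal protein genes, against 0.04 for the 84 respiratory chain genes. Within 0.1 lay 77.3%, 76.5% and 61.1% of these, in the same order, against 76.2% of the respiratory chain genes. Their median levels with the control KD label were 9.48, 7.99 and 6.83, against 8.62. None of these ribosomal and proteasome genes was past 1.5-fold, beside 1.78% of all genes higher and 5.42% lower by as much. Below 0 were 60 cytosolic ribosomal protein genes (90.9%), with a median of -0.06, beside 52.1% of all genes. That count was 50 after quantile normalization and 43 with the arrays centred on their medians, where the median was -0.01. Of the mitochondrial ribosomal protein genes 26 were below 0, and 23 and 16 under those scalings. Of the proteasome genes 16 were, and 16 and 12 under those scalings. Differences between these assemblies were not tested.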
